A study of Homo sapiens with 6 samples.

Results

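The 69 replication-dependent histone genes were compared between HEK293 cells with stable overexpression of SFXN2 and wild-type HEK293 cells, a long-established line that came from human embryonic kidney. They were every gene whose symbol begins with HIST1H, HIST2H, HIST3H or HIST4H and whose description does not contain the word pseudogene, out of 60564 genes in the count table. A further 13 genes with such symbols were described as pseudogenes and were left out. The 69 comprised 6 genes for the linker histone H1, 17 for H2A, 18 for H2B, 13 for H3 and 15 for H4. Annotated positions (GENCODE 29 on GRCh38) placed 54 HIST1 genes on chromosome 6, 11 HIST2 genes and 3 HIST3 genes on chromosome 1, and HIST4H4 on chromosome 12. As a group these genes had a higher mean level with SFXN2 overexpression, but the excess came from overexpression replicates 2 and 3. Overexpression replicate 1 lay within or below the wild-type range for 33 of the 37 that could be tested, beside 79.8% of all tested genes, and no single histone gene passed the test. The genes were put forward because earlier results on these same libraries had shown this contrast, so their differences between the groups are given as a description.

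The series has 6 RNA sequencing libraries, 3 from the overexpressing cells (OE_HA) and 3 from wild-type cells (NC_HA). The SFXN2 protein, sideroflexin 2, sits in the mitochondrial membrane and belongs to a family of carriers, and the series title links it to apoptosis after mitochondrial dysfunction. The labels do not state the vector, the promoter or the number of clones behind the overexpression, name no vector or tag control, and do not say what NC and HA stand for. Nor do they say whether each replicate came from its own culture, so the p-values below reflect the spread among these 6 libraries, which may be technical.

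Replication-dependent histone genes supply the core histones H2A, H2B, H3 and H4, around which DNA is wound, and the linker histone H1, for newly copied DNA. Their messages accumulate in S phase and usually end in a conserved stem-loop in place of a poly(A) tail. The stem-loop is bound by SLBP, its processing needs the U7 small nuclear RNA, and transcription of the clusters depends on NPAT. Several of these genes, HIST1H2BK and HIST2H2BE among them, are also known to make polyadenylated messages.

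The stem-loop was the first sequence compared, because it defines how these messages end. It was searched as GG, 2 free bases, CTT, 1 free base, T, 1 free base, AG, 2 free bases and CC on the transcript strand of the GENCODE 29 transcripts and was found in 33 of the 69 genes. Another 30 genes were annotated as coding exons only, so that no loop could be found in them. The loops below belong to genes on which the later results turn. Capitals mark the 16 bases of the stem-loop, the coordinates are those of the capitals on GRCh38, and the lower-case letters are the neighbouring bases.
HIST2H4A, chr1:149833032-149833047, plus strand: ccaaaGGCCCTTTTTAGGGCCgaccacttg
HIST1H4H, chr6:26285131-26285146, minus strand: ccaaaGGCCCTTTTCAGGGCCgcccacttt
HIST1H4E, chr6:26205001-26205016, plus strand: tcaaaGGCCCTTTTCAGGGCCgcccacagt
HIST1H2AC, chr6:26124669-26124684, plus strand: ccaaaGGCTCTTTTCAGAGCCcccctaccg
HIST1H2AG, chr6:27133515-27133530, plus strand: ccaacGGCTCTTTTCAGGGCCacccacgtc
HIST3H2A, chr1:228457369-228457384, minus strand: ataaaGGCTCTTTTCAGAGCCacctactat
HIST1H2BN, chr6:27839090-27839105, plus strand: ccaaaGGCTCTTTTCAGAGCCactcagtct
HIST1H2BG, chr6:26216218-26216233, minus strand: tcaaaGGCTCTTTTCAGAGCCactcaagtc
HIST1H2BD, chr6:26158587-26158602, plus strand: ccaaaGGCTCTTTTAAGAGCCacgcatgtt
HIST1H3E, chr6:26225596-26225611, plus strand: ccaaaGGCTCTTCTCAGAGCCaaccacttt
HIST2H3C, chr1:149840692-149840707, minus strand: caaaaGGCTCTTTTCAGAGCCacccacatc

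The loops followed the histone class. All 8 H4 genes with a loop had the stem GGCCCT paired with AGGGCC, with TTTC between the arms in 5 of them and TTTT in the other 3, which were HIST1H4I, HIST2H4A and HIST2H4B. The 25 genes of the other classes had GGCTCT as the first arm, and in 24 of them AGAGCC as the second arm. HIST1H2AG was the exception, with GGCTCT before the loop and AGGGCC after it. The form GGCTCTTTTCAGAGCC was shared by 18 genes of H2A, H2B and H3. The form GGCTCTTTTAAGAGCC was found in 5 genes, namely HIST1H2BC, HIST1H2BD, HIST1H2BF, HIST1H3G and HIST3H3, and HIST1H3E alone had TCTC between the arms.

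Counts per library and the targeted gene were examined before the histone genes. Total gene counts ran between 40043248 and 59963713 with overexpression and between 32121527 and 41217867 in wild type, and 25010 to 29154 genes were counted with overexpression, against 24466 to 26127 in wild type. Levels are given as CPM, that is, counts brought to a common library size with TMM factors. SFXN2 had 1523, 1909 and 1771 CPM in the 3 overexpressing libraries, against 36.6, 27.8 and 44.7 CPM in the 3 wild-type libraries, in the order of the replicate numbers used throughout. Its log2 fold change was 5.58 (SE 0.20, edgeR quasi-likelihood test, Benjamini-Hochberg adjusted p = 2.32e-06), in keeping with the labels of all 6 libraries. The kit named in the labels gives unstranded libraries, and 15 of the 69 genes have exons that overlap another gene, whose reads cannot be told apart from theirs.

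Histone genes took a small share of all counts. That share was 0.00973%, 0.0168% and 0.0277% in overexpression replicates 1, 2 and 3, and 0.0110%, 0.0124% and 0.00989% in wild-type replicates 1, 2 and 3. The means were 0.0181 ± 0.00907% with overexpression and 0.0111 ± 0.00125% in wild type (SD, n = 3 each). The spread was thus wider among the overexpressing libraries than among the wild-type ones, and the groups overlapped. The summed level of the 69 genes was 100.3, 162.1 and 272.1 CPM with overexpression, against 112.2, 123.9 and 100.2 CPM in wild type. Overexpression replicate 1 lay within the wild-type range, and the other two overexpressing libraries lay above it. The ratio of the group means was 1.59, and overexpression replicate 1 alone stood at 0.895 of the wild-type mean. Without overexpression replicate 3 the log2 ratio of the means was 0.23, against 0.67 with it. The libraries with the highest histone sums, overexpression replicates 3 and 2, were also the deepest ones. In bulk RNA, more cells in S phase and more histone RNA per cell cannot be told apart.

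H4 contributed most to the difference. H4 genes accounted for 44.5% of the summed difference of 66.1 CPM between the group means, H2B genes for 24.9%, H2A genes for 14.5%, H3 genes for 9.22% and H1 genes for 6.88%. The near-identical pair HIST2H4A and HIST2H4B together made up 32.3% of it. These percentages, and the shares that follow, count both copies of such pairs. With copies counted once, the H4 means were 35.1 CPM with overexpression and 16.5 CPM in wild type. The H2B means were then 57.0 and 40.5 CPM, so the lead of H4 over H2B in the difference was smaller. The H4 share of histone CPM was 14.2%, 27.8% and 37.7% in overexpression replicates 1, 2 and 3, against 20.03%, 20.62% and 25.76% in wild type. The H2B share was 38.3%, 35.7% and 27.4% with overexpression and 36.2%, 37.2% and 34.7% in wild type. With both copies of near-identical pairs counted, overexpression replicate 3 was the only library in which H4 genes had more counts than H2B genes. With such copies counted once, that library had 65.5 CPM for H4 and 74.5 CPM for H2B.

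**Figure D1:**
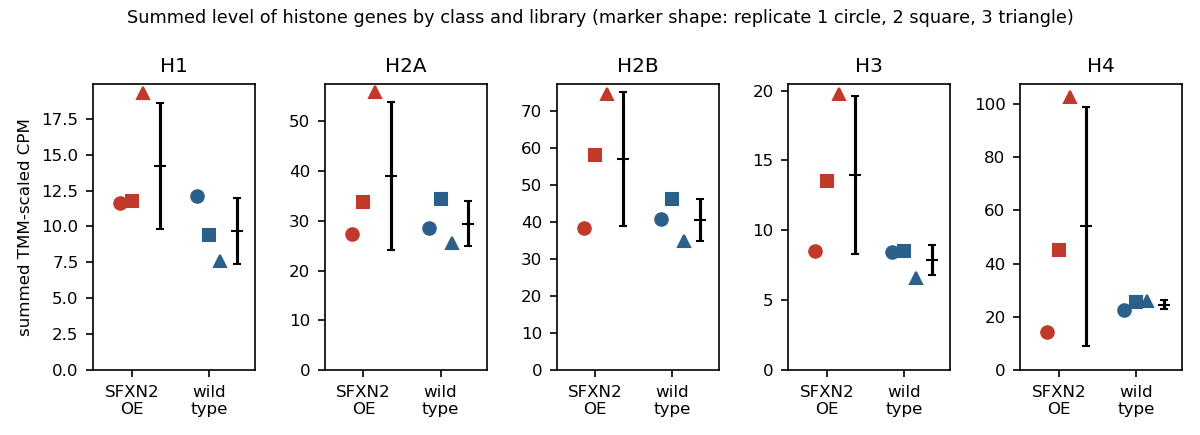
Summed TMM-scaled CPM of the genes of each histone class in each library, with the mean ± SD (n = 3) beside the points and a separate vertical axis for each class, each starting at 0. Overexpression replicate 3 is the highest library in all 5 classes, and overexpression replicate 1 is the lowest library for H4 at 14.3 CPM.

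The H4 genes encode the core histone whose tail carries well-known acetylation sites, and HIST2H4A and HIST2H4B encode the same protein. The summed H4 level was 14.3, 45.0 and 102.7 CPM with overexpression, against 22.5, 25.6 and 25.8 CPM in wild type. The means were 54.0 ± 44.9 CPM and 24.6 ± 1.86 CPM (SD, n = 3 each), a ratio of 2.19. Overexpression replicate 1 stood at 0.581 of the wild-type mean, while the other two overexpressing libraries averaged 3.00 times the wild-type mean. The log2 ratio of the group means, 1.13, was 0.27 without overexpression replicate 3. Of the 8 H4 genes that passed the filter on low counts, all 8 were above the wild-type range in both overexpression replicate 2 and replicate 3, and 5 were below it in replicate 1.

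HIST2H4A (chr1:149832659-149839767) had 4.09, 16.2 and 37.1 CPM with overexpression, against 7.44, 9.11 and 9.10 CPM in wild type. Its log2 fold change was 1.17 (SE 0.76), and the first overexpressing library lay below all wild-type libraries. HIST2H4B had 4.04, 15.5 and 37.1 CPM with overexpression and 7.38, 8.67 and 8.40 CPM in wild type, with a log2 fold change of 1.22 (SE 0.76). The raw counts of the 2 genes were nearly equal in each library, with 2269 counts for each in overexpression replicate 3, so the way in which reads were split between the copies is uncertain and the pair is best read as 1 locus. Exons of HIST2H4A also overlap HIST2H3C, and exons of HIST2H4B overlap HIST2H3A. HIST1H4H, the next most counted H4 gene, had 2.16, 5.86 and 16.7 CPM with overexpression, against 3.26, 2.94 and 3.73 CPM in wild type. Its log2 fold change was 1.32 (SE 0.66), with the same order of the overexpressing libraries as the HIST2 pair. HIST1H4E had the highest log2 fold change of all tested histone genes, at 1.82 (SE 0.66). It stood at 0.23, 0.95 and 1.41 CPM with overexpression and at 0.25, 0.36 and 0.11 CPM in wild type, a level resting on 9, 52 and 86 counts against 8, 15 and 4 counts. The other 4 tested H4 genes had log2 fold changes between 0.47 (HIST1H4I) and 1.26 (HIST1H4K).

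H2B pairs with H2A in the nucleosome, and its genes had the most counts of the 5 classes in all 3 wild-type libraries. The H2B sum was 38.4, 57.9 and 74.5 CPM with overexpression, against 40.7, 46.1 and 34.7 CPM in wild type, a ratio of the means of 1.41. HIST1H2BK, the histone gene with the most counts, had 23.7, 24.4 and 31.5 CPM with overexpression and 24.4, 20.8 and 20.2 CPM in wild type, and was highest in overexpression replicate 3. Its log2 fold change was 0.29 (SE 0.14), with a 95% interval from -0.038 to 0.61. HIST1H2BK made up 23.6%, 15.1% and 11.6% of histone counts with overexpression, against 21.7%, 16.8% and 20.1% in wild type. HIST1H2BN had 4.40, 6.56 and 7.54 CPM with overexpression, against 3.67, 3.93 and 3.39 CPM in wild type. All overexpressing libraries lay above all wild-type ones for HIST1H2BN, whose log2 fold change was 0.75 (SE 0.24). Its exons overlap HIST1H2AK and HIST1H2AL, so its reads may include theirs.

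HIST1H2BG and HIST1H2BE had the largest log2 fold changes among the H2B genes. HIST1H2BG stood at 0.59, 1.69 and 3.94 CPM with overexpression, against 0.60, 0.68 and 0.90 CPM in wild type (log2 fold change 1.52, SE 0.59). HIST1H2BE stood at 0.31, 0.75 and 1.26 CPM with overexpression, against 0.28, 0.36 and 0.31 CPM in wild type (log2 fold change 1.27, SE 0.53). In both genes the first overexpressing library lay within or just below the wild-type values. HIST2H2BE, known also to be expressed outside S phase, did not follow the other genes. It had 2.47, 7.89 and 5.71 CPM with overexpression and 2.85, 10.5 and 1.64 CPM in wild type, with a log2 fold change of 0.099 (SE 0.73). Its highest library was wild-type replicate 2 and its values varied widely within both groups. HIST1H2BH and HIST1H2BO were near 0 on the log2 scale as well, at 0.086 (SE 0.43) and -0.10 (SE 0.59), with at most 29 counts in any library.

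H2A genes showed the smallest ratio between the groups. Their sum was 27.4, 33.8 and 55.8 CPM with overexpression, against 28.5, 34.4 and 25.4 CPM in wild type, a ratio of the means of 1.32. HIST3H2A, the most counted H2A gene, had 15.1, 13.5 and 19.3 CPM with overexpression and 13.6, 18.4 and 12.9 CPM in wild type. Its log2 fold change was 0.095 (SE 0.19), with a 95% interval from -0.32 to 0.51 and overlapping groups. HIST1H2AC had 2.63, 6.06 and 13.8 CPM with overexpression, against 4.49, 3.01 and 2.83 CPM in wild type, and its log2 fold change was 1.13 (SE 0.54). HIST1H2AG had 3.42, 5.56 and 9.13 CPM with overexpression, against 2.88, 4.20 and 3.11 CPM in wild type, and its log2 fold change was 0.83 (SE 0.34). In both genes overexpression replicates 2 and 3 were the highest libraries. The 4 tested histone genes with log2 fold changes below 0 included 3 H2A genes, HIST1H2AL at -0.69 (SE 0.49), HIST2H2AC at -0.38 (SE 0.40) and HIST1H2AM at -0.0059 (SE 0.71). None of these 3 had more than 35 counts in a library. HIST2H2AA3 and HIST2H2AA4, another near-identical pair, had log2 fold changes of 0.27 and 0.26 on almost equal counts.

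H3 was the only class in which the summed levels of the groups did not overlap, and the margin was small. The H3 sum was 8.55, 13.6 and 19.8 CPM with overexpression, against 8.48, 8.53 and 6.62 CPM in wild type, a ratio of the means of 1.77. With scaling by library size alone, overexpression replicate 1 fell inside the wild-type range. HIST1H3E had 3.37, 6.13 and 4.74 CPM with overexpression, against 2.82, 3.21 and 2.71 CPM in wild type, and the groups did not overlap (log2 fold change 0.71, SE 0.26). HIST1H3H had 3.42, 3.71 and 7.28 CPM with overexpression, against 3.86, 3.59 and 2.09 CPM in wild type, and here only overexpression replicate 3 stood above wild type (log2 fold change 0.60, SE 0.35). HIST2H3C had 0.70, 1.31 and 3.17 CPM with overexpression, against 0.79, 0.70 and 0.76 CPM in wild type (log2 fold change 1.21, SE 0.51). Its near-identical copy HIST2H3A had a log2 fold change of 1.16 on almost equal counts, and both share exonic bases with a HIST2H4 gene.

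H1 genes, which encode the histone that binds linker DNA between nucleosomes, had few counts apart from 1 gene. That gene, HIST1H1C, had 11.3, 11.3 and 18.4 CPM with overexpression, against 11.9, 9.23 and 7.27 CPM in wild type (log2 fold change 0.53, SE 0.24). HIST1H1E had 0.31, 0.27 and 0.65 CPM with overexpression, against 0.16, 0.10 and 0.20 CPM in wild type (log2 fold change 1.46, SE 0.56). All overexpressing libraries lay above wild type for HIST1H1E, on 12, 15 and 40 counts against 5, 4 and 7 counts. HIST1H1T, the testis H1, had at most 4 counts in any library and was not tested, and HIST1H1B had no count in any library.

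**Figure D2:**
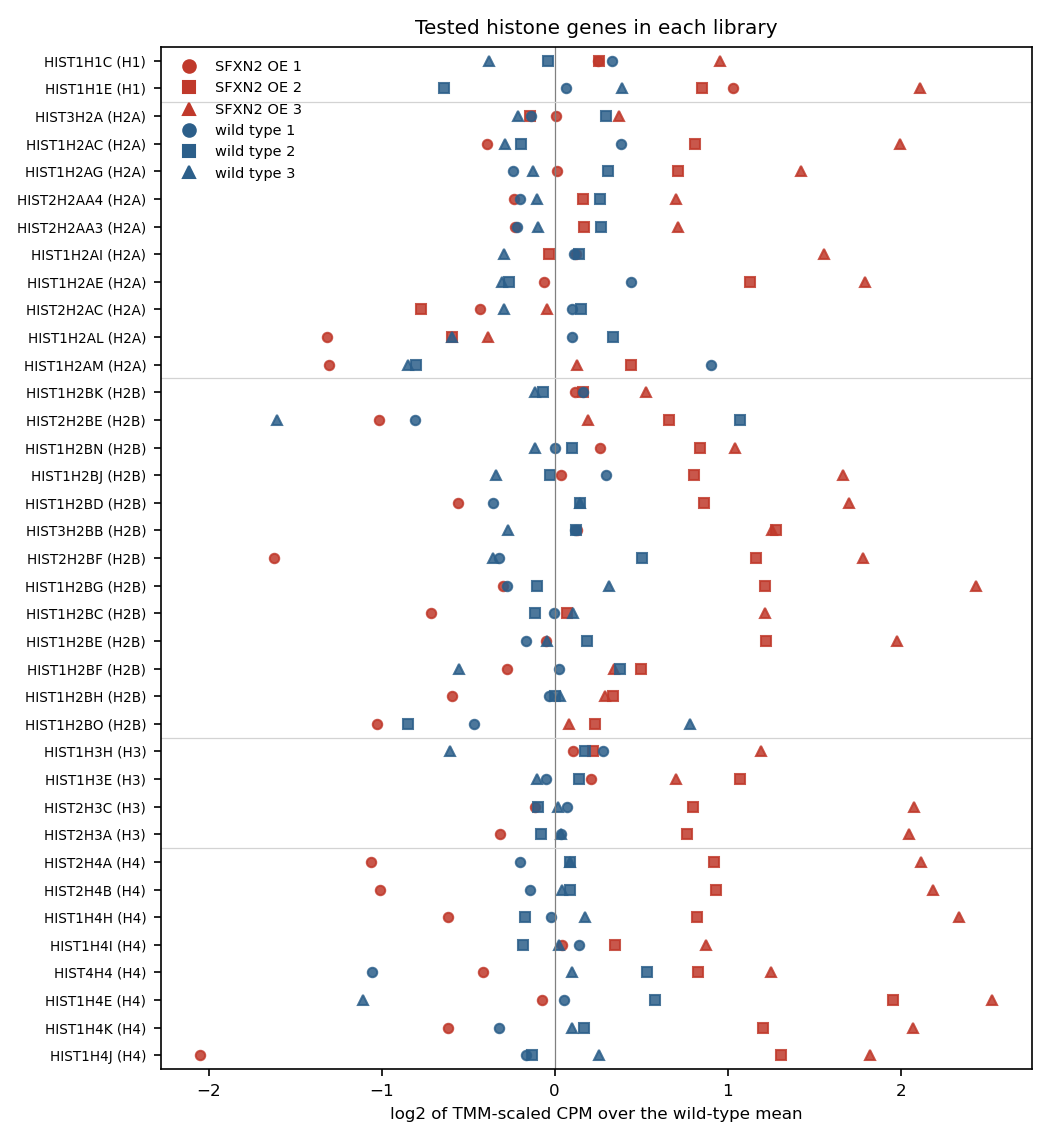
Level of each of the 37 tested histone genes in each library, as the log2 of TMM-scaled CPM over the mean of the wild-type libraries, with genes ordered by class and by mean level from top to bottom. Overexpression replicate 3 is the highest library for 28 of the 37 genes, and overexpression replicate 1 for none.

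Only 37 of the 69 genes passed the filter on low counts, 2 for H1, 10 for H2A, 13 for H2B, 4 for H3 and 8 for H4. A gene could pass on the counts of 1 group alone, so the 37 are not a neutral sample of the 69. With the edgeR quasi-likelihood test and Benjamini-Hochberg adjustment over all genes, 0 of the 37 passed an adjusted p of 0.05, and 2 of all 18797 tested genes did (0.0106%). DESeq2 also called 0 of the 37, and 9 of all tested genes (0.0479%), and the edgeR fit with the replicate block called 0 of the 37 and 1 of all tested genes (0.00532%). The smallest adjusted p of a histone gene was 0.930. At an unadjusted p under 0.05, edgeR gave 10 of the 37, all higher with overexpression, against 2.38% of all tested genes in that direction. The 10 comprised 5 H2B genes, 2 H3 genes and 1 gene each of H1, H2A and H4. In 4 of the 37, namely HIST1H1E, HIST1H2BN, HIST3H2BB and HIST1H3E, every overexpressing library was above every wild-type library, against 4.91% of all tested genes. In 0 of the 37 every overexpressing library was below, against 4.25% of all tested genes. For HIST3H2BB the margin was very small, with 1.983, 4.401 and 4.319 CPM against 1.963, 1.967 and 1.498 CPM. Since the genes were put forward on this contrast, these counts describe them and carry no test.

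The log2 fold change was above 0 in 33 of the 37, against 51.2% of all tested genes, with a median of 0.75 beside a median of 0.0060 over all tested genes. Tallies and medians over the 37 and over the classes count both copies of near-identical pairs. These are HIST2H4A with HIST2H4B, HIST2H3A with HIST2H3C and HIST2H2AA3 with HIST2H2AA4, all with values above 0. By class the median was 1.00 for H1, 0.27 for H2A, 0.75 for H2B, 0.93 for H3 and 1.19 for H4. The precision was lower than for most genes. The median SE of a log2 fold change over all tested genes was 0.17, and only 4 of the 37 histone genes had a 95% interval inside -1 to 1, against 13643 of all 18797 tested genes. Single libraries moved these values strongly. Overexpression replicate 3 was above the wild-type range in 31 of the 37 genes, replicate 2 in 25 and replicate 1 in 4, beside 26.6%, 25.3% and 20.2% of all tested genes. Replicate 1 was below the wild-type range in 19, beside 21.3% of all tested genes. Without overexpression replicate 3 the median was 0.27, with 0 histone genes at an unadjusted p under 0.05, beside 1.59% of all genes tested there. Without overexpression replicate 1 it was 1.19, with 26 of 42 histone genes, beside 11.8% of all genes tested there. No histone gene passed the adjusted threshold in either case.

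**Figure D3:**
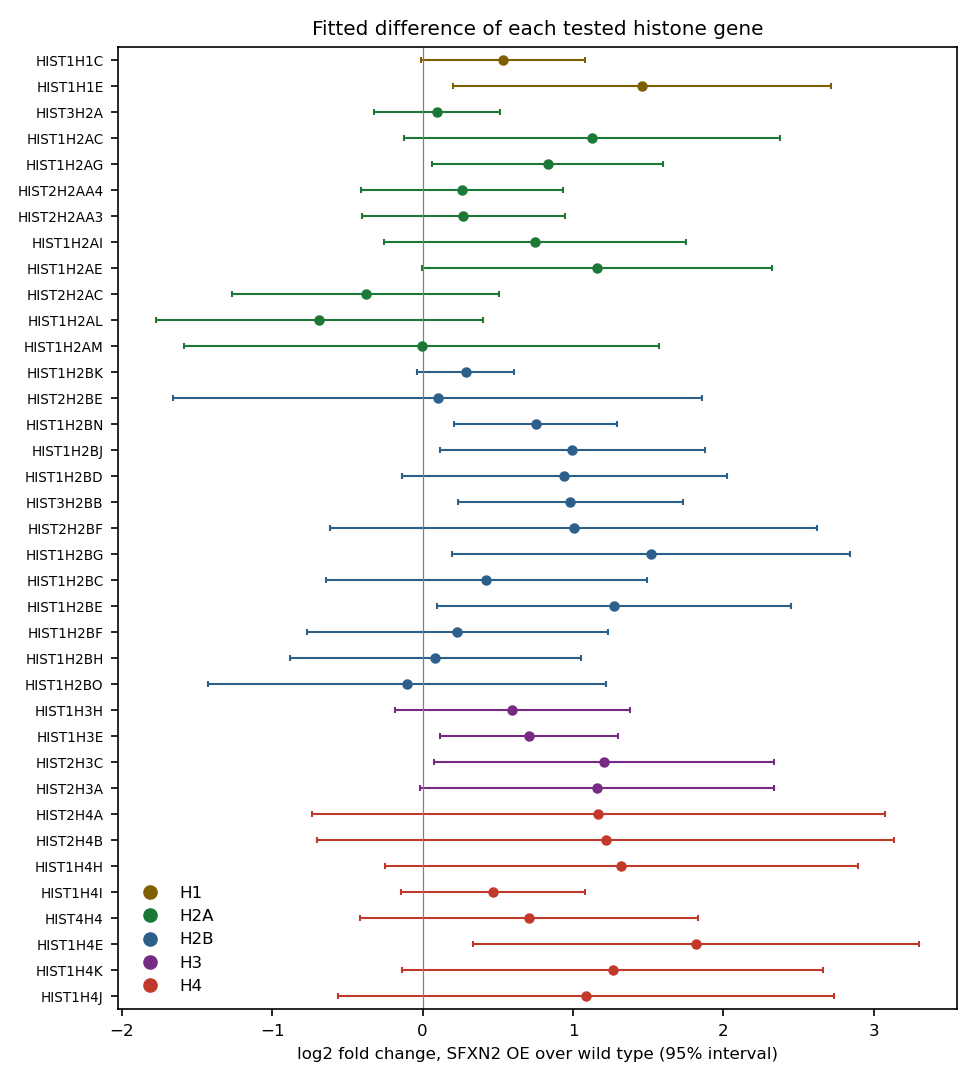
Log2 fold change of SFXN2 overexpression over wild type with its 95% interval for each of the 37 tested histone genes, coloured by class. Of the points, 33 lie above 0, and the intervals of HIST2H4A, from -0.74 to 3.07, and HIST2H4B, from -0.70 to 3.14, are the widest.

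The 32 genes that were not tested carried few reads. Their summed level was 0.98, 2.86 and 4.53 CPM with overexpression, against 1.33, 1.58 and 1.24 CPM in wild type, with overexpression replicates 3 and 2 again the highest. Of these 32 genes, 13 had no more than 3 counts in every library, the limit used here for a count of 0, and HIST1H1B and HIST1H4L had none at all. Of the 32, 8 had counts with overexpression and none in wild type, 4 of them above 3 counts in an overexpressing library. In the other direction, 3 had no count in any overexpressing library, HIST1H1B and HIST1H4L among them. Mean total counts were 50988322 with overexpression and 36392872 in wild type. No share over all genes was computed for these zeros. A wild-type count of 0 at this depth allows a level of up to 0.095 CPM in the shallowest library. The symbol HIST1H3D belonged to 2 genes. The one with identifier ENSG00000282988 had 3, 33 and 37 counts with overexpression and 0, 0 and 4 counts in wild type. Its exons overlap those of the other HIST1H3D and of HIST1H2AD, and it was singled out after its values were seen. HIST1H4D, with 3, 13 and 55 counts against 3, 16 and 4 counts, and HIST1H4C, with 0, 14 and 37 counts against 7, 2 and 7 counts, were highest in overexpression replicate 3. That library alone was highest for 16 of the 30 untested genes with any count, and a wild-type library was highest for 8. The same library was highest in 17.3% of all tested genes, and no share over all untested genes was computed. HIST1H2AH had 0, 4 and 3 counts with overexpression and 5, 8 and 5 counts in wild type. It was the 1 untested gene with every overexpressing library below every wild-type one. HIST1H1D had every overexpressing library above every wild-type one, with 2, 1 and 6 counts against 0, 0 and 0 counts. No share over all untested genes was computed for such separation. The genes in these sentences were singled out after their values were seen.

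Levels of different genes were compared per kilobase of annotated exon. HIST1H2BK was highest, at 69.7 ± 11.3 CPM per kilobase with overexpression and 57.2 ± 5.97 CPM per kilobase in wild type (SD, n = 3 each). HIST1H1C followed with 21.3 ± 6.37 and 14.7 ± 3.62 CPM per kilobase, and HIST3H2A with 17.8 ± 3.35 and 16.7 ± 3.34 CPM per kilobase, so that these 2 genes did not differ beyond their spread in either group. HIST2H4A came next, at 10.2 ± 8.91 CPM per kilobase with overexpression and 4.56 ± 0.51 CPM per kilobase in wild type. In wild type this was close to HIST2H2AA3, at 4.29 ± 0.78 CPM per kilobase. Most other genes were far lower, and the 5 genes with the most counts held 53.6 ± 4.04% of histone counts with overexpression and 56.3 ± 2.47% in wild type. The annotated lengths bear on this order, since HIST1H2BK and HIST1H1C are annotated with coding exons alone, 381 and 642 bases, whereas HIST2H4A has 1876 bases of exon.

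The genes were next grouped by how far their annotated exons run relative to the stem-loop. In 24 genes the annotation runs at least 100 bases past the loop, and these genes took 65.0% of histone counts. Their summed level was 54.5, 107.7 and 190.3 CPM with overexpression, against 62.8, 79.3 and 60.4 CPM in wild type, and the 22 of them that were tested had a median log2 fold change of 0.91. In 9 genes the annotation ends near the loop. These summed to 6.849, 11.22 and 19.04 CPM with overexpression, against 7.597, 9.400 and 7.973 CPM in wild type, with a median log2 fold change of 0.84 over 6 tested genes. In both groups of genes overexpression replicate 3 was highest, replicate 2 came next and replicate 1 was lowest of all 6 libraries. The 30 genes annotated with coding exons only summed to 36.5, 39.0 and 54.7 CPM with overexpression, against 38.9, 33.0 and 29.7 CPM in wild type. Their 7 tested genes had a median log2 fold change of -0.0059, with 3 above 0, and included HIST1H2BK, HIST1H1C and the low-count genes HIST1H2AL, HIST1H2AM, HIST1H2BO, HIST1H4K and HIST2H2AC. The remaining 6 genes had non-coding exon bases but no loop within them. The counts are totals per gene, so they do not show whether reads lay before or after the loop.

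**Figure D4:**
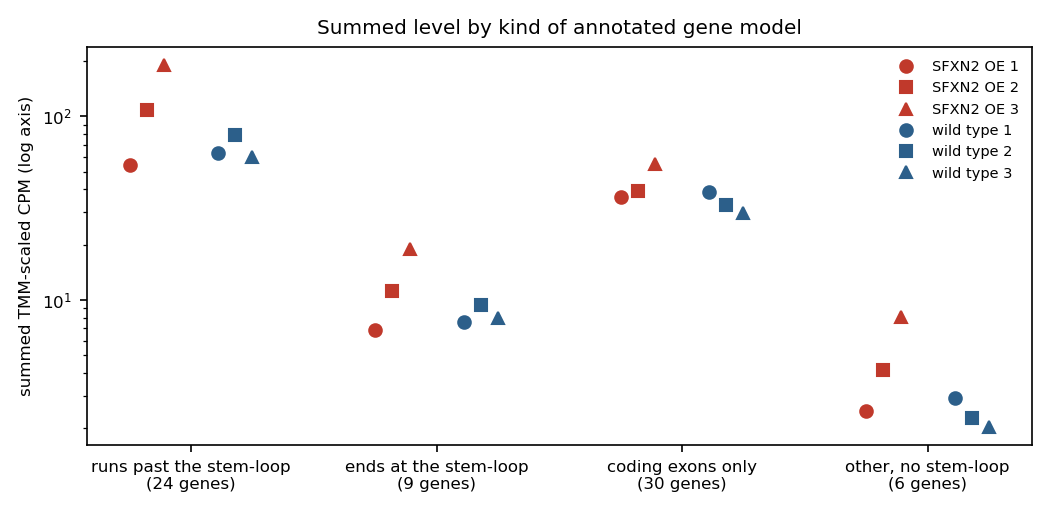
Summed TMM-scaled CPM (log axis) of histone genes in each library, by whether the annotated exons run at least 100 bases past the stem-loop, end near it, hold coding exons only, or hold other exons without a loop. The 24 genes that run past the loop span 54.5 to 190.3 CPM with overexpression and 60.4 to 79.3 CPM in wild type.

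Among genes with a loop, the 2 H4 forms had median log2 fold changes of 1.20 over 4 tested genes and 1.17 over 3 tested genes. Those 3 include both HIST2H4A and HIST2H4B, and near-identical copies in other forms were likewise each counted. The form shared by 18 genes of H2A, H2B and H3 had a median of 0.87 over 16 tested genes, ranging from 0.086 to 1.52. The form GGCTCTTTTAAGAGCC had a median of 0.42 over 3 tested genes, ranging from 0.23 to 0.94. These ranges overlapped, loop and class go together, and the groups were not compared by a test.

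The stretch before the transcription start was read for the most counted gene of H4, of H2B and of H1. In H4, overexpression replicate 3 stood at 102.7 CPM against a wild-type mean of 24.6 CPM. H2B, at 74.5 against 40.5 CPM, and H1, at 19.3 against 9.68 CPM, stood less far above wild type and much like each other. In overexpression replicate 1 the order was the reverse, with H4 at 0.581, H2B at 0.949 and H1 at 1.20 of the wild-type mean. A link between the promoter stretches and these levels was not tested. The 150 bases before the RefSeq start (GRCh38.p14) are printed in the direction of transcription. Capitals mark matches, on either strand, to CCAAT, to TATAAA, to the octamer ATTTGCAT, to GGTCCG (a core element of H4 promoters) and to AAACACA (an element of H1 promoters).
HIST2H4A, chr1:149832507-149832656, plus strand: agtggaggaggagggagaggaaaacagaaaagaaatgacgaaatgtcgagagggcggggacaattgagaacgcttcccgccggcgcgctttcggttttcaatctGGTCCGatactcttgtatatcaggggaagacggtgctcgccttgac
HIST1H2BK, chr6:27146859-27147008, minus strand: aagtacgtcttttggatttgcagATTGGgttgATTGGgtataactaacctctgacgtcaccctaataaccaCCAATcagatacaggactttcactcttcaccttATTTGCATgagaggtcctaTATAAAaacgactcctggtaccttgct
HIST1H1C, chr6:26056471-26056620, minus strand: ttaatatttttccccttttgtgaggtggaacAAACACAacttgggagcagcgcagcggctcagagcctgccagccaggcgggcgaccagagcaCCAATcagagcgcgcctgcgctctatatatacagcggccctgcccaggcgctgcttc

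Over the window from 250 bases before to 50 bases after the start, 63 of the 69 genes were matched to RefSeq, and these elements followed the class. GGTCCG was in 12 of 13 H4 genes and in at most 1 gene of each other class, against 11.2% of 27305 promoters. CCAAT was in all matched genes of H1, H2A, H2B and H3 and in 3 of 13 H4 genes, against 35.7% of promoters. The octamer was in 14 of 18 H2B genes and 11 of 16 H2A genes, against 1.80% of promoters. AAACACA was in all 6 H1 genes, against 5.76% of promoters, and TATAAA in 42 of the 63 genes, against 12.0%. A pair of matches can share bases, as in HIST2H2BE, where GGTCCG on the reverse strand overlaps CCAAT. The HIST2H4A and HIST2H4B stretches were identical. A match describes the letters and does not show that a factor bound there.

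Many H2A and H2B genes face away from each other across a shared promoter region. There were 11 such pairs with each other and 2 of an annotated H3 gene with an H2B gene, with starts 219 to 357 bases apart. Both genes were tested in 6. The 2 pairs with H3 were those of HIST1H2BF and HIST1H2BO, each also paired with an H2A gene whose exons the H3 gene overlaps. They are thus not separate promoter regions. HIST1H2BG and HIST1H2AE had log2 fold changes of 1.52 and 1.16, and HIST1H2BJ and HIST1H2AG had 1.00 and 0.83. In HIST3H2A and HIST3H2BB the values were 0.095 and 0.98, and in HIST1H2BC and HIST1H2AC they were 0.42 and 1.13. HIST1H2AM and HIST1H2BO had -0.0059 and -0.10, and HIST2H2BE and HIST2H2AC had 0.099 and -0.38. The genes of a pair could lie far apart in level as well. HIST3H2A stood at 17.8 CPM per kilobase of exon and HIST3H2BB at 1.51 CPM per kilobase with overexpression, against 16.7 and 0.77 CPM per kilobase in wild type.

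The clusters differed in summed level too. HIST1 genes summed to 65.9, 91.8 and 147.4 CPM with overexpression, against 71.3, 64.5 and 58.4 CPM in wild type, a ratio of the means of 1.57. HIST2 genes summed to 16.8, 50.9 and 99.1 CPM with overexpression, against 25.0, 37.9 and 26.6 CPM in wild type, a ratio of 1.86. The 3 HIST3 genes, mostly HIST3H2A, summed to 17.04, 17.97 and 23.66 CPM with overexpression, against 15.54, 20.35 and 14.39 CPM in wild type, a ratio of 1.17. Overexpression replicate 3 was the highest library in each of these 3 clusters.

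Genes that act with the replication-dependent histones did not show the same size of difference. None of the 12 replication-independent histones, 26 factors of histone mRNA transcription, processing and decay, 36 genes of DNA replication and S phase or 19 histone chaperones passed the edgeR test, DESeq2 or any other setting tried for them. At an unadjusted p under 0.05, edgeR gave 1 of the 12, 2 of the 26, 4 of the 36 and 0 of the 19, beside 4.76% of all tested genes in either direction. The median log2 fold changes of the 4 lists lay between -0.074 and -0.0037. Among the genes listed as replication-independent histones, H3F3B stood at 433 ± 36.2 CPM with overexpression and 431 ± 11.9 CPM in wild type (SD, n = 3 each). H2AFX, the variant phosphorylated at DNA breaks, stood at 91.09 ± 15.005 and 113.1 ± 14.82 CPM, with a log2 fold change of -0.31 (SE 0.14), and H2AFY2 at 65.7 ± 4.60 and 71.1 ± 4.91 CPM.

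Among the factors of histone mRNA, SLBP stood at 71.8 ± 8.31 CPM with overexpression and 73.2 ± 4.86 CPM in wild type, and NPAT at 41.6 ± 2.17 and 45.8 ± 4.51 CPM (SD, n = 3 each). ZNF473, a zinc finger protein of the U7 processing complex, had a log2 fold change of 0.43 (SE 0.15), at 45.1 ± 7.56 CPM with overexpression and 33.5 ± 5.43 CPM in wild type. MIF4GD, which links SLBP to translation, had -0.36 (SE 0.15), and SRRT, a cap-complex partner with the highest level of the list, had -0.11 (SE 0.14). Among the replication genes, the helicase subunit MCM7 had a log2 fold change of -0.11 (SE 0.10), the DNA ligase LIG1 -0.25 (SE 0.10) and the polymerase subunit POLD1 -0.29 (SE 0.11). Of the 36 replication genes, 10 had log2 fold changes above 0, and their summed level was 5741 ± 371 CPM with overexpression and 6031 ± 252 CPM in wild type. The chaperones RBBP7, SSRP1 and TONSL had log2 fold changes of -0.17 (SE 0.14), -0.21 (SE 0.11) and -0.35 (SE 0.16). In overexpression replicates 2 and 3 the summed levels of these lists were not higher than in replicate 1. Replication genes summed to 5383 and 5717 CPM there, against 6123 CPM in overexpression replicate 1. The part of S phase in the histone values was not tested.

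**Figure D5:**
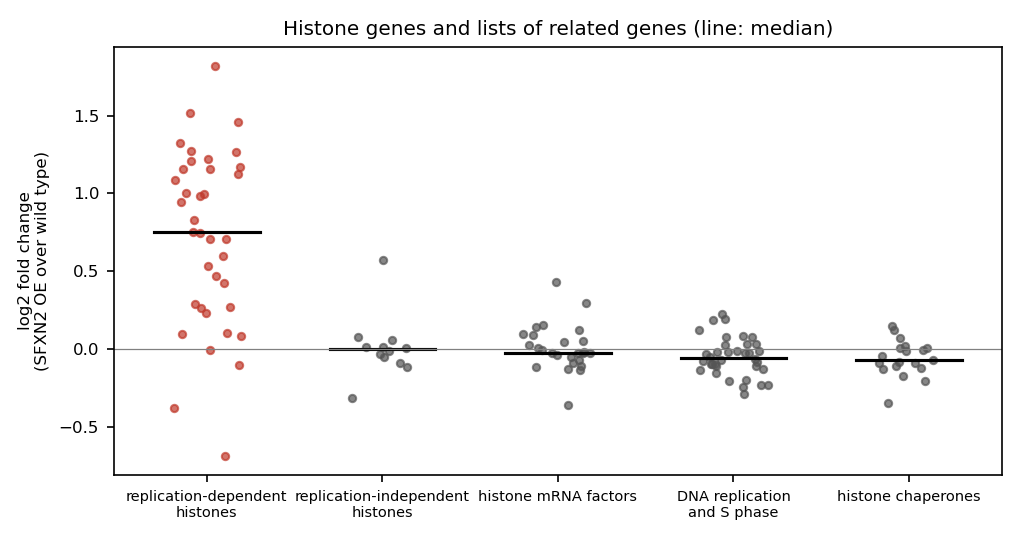
Log2 fold change of SFXN2 overexpression over wild type for each tested gene of the replication-dependent histones and of 4 lists of related genes, with a line at the median. The histone genes spread between -0.69 and 1.82 around a median of 0.75, and the medians of the other lists lie between -0.074 and -0.0037.

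Other RNAs that lack a poly(A) tail were looked at beside the histones. Of 21 such entries 16 had under 10 counts in every library, although the labels describe removal of ribosomal RNA from total RNA. The sources used here do not say whether a poly(A) step was also used. Their summed level was 5.07, 5.24 and 18.3 CPM with overexpression, against 4.46, 4.32 and 12.1 CPM in wild type. RN7SL2 was a part of it, at 1.004, 1.382 and 9.604 CPM against 1.551, 1.603 and 5.683 CPM. For the sum and for RN7SL2 the third library was the highest in both groups, which was not so for the histone sums in wild type. RN7SK, a regulator of transcription elongation, had 0.051, 0.73 and 0.83 CPM with overexpression and 0.095, 0.15 and 0.40 CPM in wild type. SNORD3A had 0.49, 0.27 and 0.49 CPM with overexpression and 0.89, 0.32 and 1.13 CPM in wild type. Only 4 of these RNAs were tested. Their median log2 fold change was 0.60, with 3 above 0, beside 0.75 for the histone genes, and none passed the edgeR test. The part of RNA fraction in the histone values was not tested.

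Markers of cell types were compared with the histone sums. All 11 HEK293 markers were tested, and their sums were 1493 to 1591 CPM with overexpression and 1424 to 1562 CPM in wild type. VIM, the highest of them, stood at 785 ± 54.3 and 754 ± 53.5 CPM (SD, n = 3 each). Blood and immune markers summed to 1.00 to 2.14 CPM with overexpression and 0.97 to 1.44 CPM in wild type, with 1 of 8 at 0, and liver markers to 0.25 to 0.64 CPM and 0.17 to 0.24 CPM, with 2 of 4 at 0. Fibroblast markers summed to 12.5 to 21.6 CPM with overexpression and 15.1 to 21.3 CPM in wild type. Neuron markers summed to 26.7, 48.2 and 55.6 CPM with overexpression, against 26.3, 32.5 and 29.4 CPM in wild type. Their order followed the histone sums in the overexpressing libraries only. In wild type the neuron sum was lowest in replicate 1 and the histone sum in replicate 3. All 6 tested neuron markers of 9 had log2 fold changes above 0, with TUBB3 at 7.18, 17.4 and 25.9 CPM against 9.34, 7.63 and 12.5 CPM. None of the 9 neuron markers and none of the HEK293 markers was at 0 in all libraries. No marker of the 5 lists passed the edgeR test, ALB alone had an unadjusted p under 0.05, and their part in the histone values was not tested.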

How the data were processed

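Total RNA of 6 HEK293 libraries was measured, and the authors deposited raw counts of 60564 genes, named by Ensembl identifier, per the file headers. The submitters' processing notes name Trim Galore 0.4.4 for trimming and hg38 as the build. For the aligner, the counter and the annotation release, the tools were not given in the sources used here. A deposited table of log2 values was not used here. Total counts per library were 32121527 to 59963713, and the limit of 3 counts for a count of 0 covers counting error only, as PCR can copy 1 molecule into several reads and the labels name no molecular identifiers. Intervals are 95%.

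The test was that of edgeR 4.0.16 in R 4.3.3, with TMM scaling, filterByExpr at a minimum count of 10 (18797 genes), the robust quasi-likelihood F-test of group, and Benjamini-Hochberg adjustment at 0.05. The procedure was checked on simulated counts with the same spread set for all genes. That check does not show how well changes in the histone genes would be found. The SE is the size of the log2 fold change over the square root of F. DESeq2 1.42.0, other scalings and filters, a replicate block and leaving out each library were alternatives. The histone genes and all lists were chosen with earlier results of these data known. Named genes were the 3 most counted per class, the 5 highest and 5 lowest log2 fold changes, and, per related list, the most counted gene and the 2 with the smallest p. Further genes named were picked with their values in view.

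Libraries of equal replicate number shifted together from their group means, with correlations over genes of 0.24, 0.33 and 0.19. No label states a pairing. The main fit took group alone and left the replicate number out. Only the edgeR fit with the replicate block used the numbers as pairs. It gave 8 of the 37 histone genes an unadjusted p under 0.05, and their smallest adjusted p was 0.599. Chi-square per degree of freedom between replicate libraries was 17.8 to 59.9, more than sampling noise gives. Positions, exons and stem-loops came from GENCODE 29 on GRCh38, with all 69 genes matched by identifier, and promoters from RefSeq GRCh38.p14, 1 window per gene.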

Additional observations from a re-analysis of the deposited data

How the results depend on the processing

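Across 13 settings in all, 0 histone genes passed the adjusted threshold, and the smallest adjusted p of any of them was 0.23, without overexpression replicate 1 (edgeR). The count over all genes was 2, against 9 with DESeq2 and 1 with the replicate block, and 1 to 3 when a library was left out. The replicate block gave a median log2 fold change of 0.69 for the histone genes and changed none of their calls. Without the filter on low counts 67 histone genes were tested, with a median of 0.94. Leaving out a library moved the median between 0.27 (without overexpression replicate 3) and 1.19 (without overexpression replicate 1).

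The log2 ratio of summed levels, 0.67 for all histone genes, ranged from 0.23 to 0.95 when a library was left out, and that of H4 from 0.27 to 1.59. Overexpression replicate 1 alone, a setting added after seeing the data, gave -0.16 for all genes, 0.27 for H1, -0.10 for H2A, -0.076 for H2B, 0.12 for H3 and -0.78 for H4. Counting near-identical copies once gave 0.62 for all genes and 1.09 for H4.

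Of 254 log2 fold changes of the 22 named genes under other settings, 241 kept their sign and 13, of 5 genes, did not. HIST1H2AM gave 0.035 with library size alone, 0.081 with the replicate block and -0.35 to 0.76 with a library left out. With a library left out, HIST3H2A ranged from -0.072 to 0.27, HIST2H2BE from -0.32 to 1.26, HIST1H2BH from -0.071 to 0.31 and HIST1H2BO from -0.41 to 0.53. The cause was not tested. The widest intervals were those of HIST2H4A and HIST2H4B, and the part of depth in the width of the intervals was not tested.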

Other observations

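H1F0, a replication-independent linker histone, had a level of 65.3, 122 and 116 CPM with overexpression, against 77.2, 134 and 90.3 CPM for wild-type libraries 1, 2 and 3. Its log2 fold change was 0.0087 (SE 0.28). Wild-type replicate 2 was the highest library. The gene was singled out after its values were seen.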
